A study of Luscinia megarhynchos and Luscinia luscinia with 4 samples.

Results

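SYCP1 and SYCE3 are genes of the synaptonemal complex that are listed among the genes of the germline-restricted chromosome (GRC) of nightingales. They were taken as every row of the deposited expression table that carries either symbol. Each symbol had 1 row (SYCP1, protein identifier XP_016160863.1, and SYCE3, protein identifier XP_005040273.2, both from the collared flycatcher), so that 2 of the 799 rows are described here. The study sequenced mRNA from the gonads of wild, adult birds of 2 nightingale species. There were 4 libraries from 4 birds: the ovary of a *Luscinia megarhynchos* female, the testis of a *L. megarhynchos* male, the ovary of a *L. luscinia* female and the testis of a *L. luscinia* male. All birds were caught in the field, no treatment is named for any of them, and each female had also provided the somatic reference genome of its species. Each tissue of each species was thus represented by 1 bird, no statistical test between birds could be made, and every interval below is a 95% interval for counting error only.

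The GRC is an extra chromosome that songbirds carry in their germ cells and lose from somatic cells, and much of it consists of copies of genes from the ordinary (A) chromosomes. The synaptonemal complex is the protein zipper that holds homologous chromosomes together in meiotic prophase. In its mouse form, SYCP1 makes the transverse filaments that bridge the paired chromosomes, while SYCE3 belongs to the central element, where the filaments meet, and is needed for other central element proteins to be loaded. Both proteins act in oocytes and in spermatocytes, but an adult ovary and an adult testis hold meiotic cells at different stages and in different numbers. In these bulk samples, fewer cells of a type and less RNA per cell cannot be told apart.

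SYCP1 was probed in the study with 3 PCR primer pairs, which are the only nucleotide sequences of either gene given here. Primers for this gene were designed to ask whether gaps in the GRC assembly of a species were real differences between the species. The P2B and P2A pair was designed to a stretch assembled on the *L. megarhynchos* GRC alone, and the p1 and p2 pairs to a stretch that the GRCs of both species share. The sequences are shown because the p1 and p2 pairs overlap. The 17 bases in capitals in the p1 reverse primer are the reverse complement of the 17 bases in capitals in the p2 forward primer, so the p1 and p2 products meet there. The position of that stretch within the gene was not determined here. No other primers of different pairs had more than 5 bases in a row in common on either strand. Each is written from 5′ to 3′.
SYCP1 P2B forward: gacagaactggaagaagtc
SYCP1 P2A reverse: cctggaattcaatttctaagc
SYCP1 p1 forward: tggagattgatgaaagcgatggtgt
SYCP1 p1 reverse: gactgatcTGGGAGTCCTTTAATGC
SYCP1 p2 forward: gacaaGCATTAAAGGACTCCCA
SYCP1 p2 reverse: atgctttttccgtagcctgg

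The values were deposited as FPKM, nominally fragments per kilobase of coding sequence and per 1000000 reads, for reads that mapped uniquely to GRC exons. For an incomplete gene the deposited value was lower than that, by a factor described with the species comparison below. For the genes whose coding length and completeness on the GRC were listed by the study (the length-listed genes, SYCP1 and SYCE3 included), every value above 0 was a whole number of reads to within 0.01 reads, and the reads could be recovered. The libraries had been scaled to between 35404629 and 57644189 reads, of which 9009 to 50088 lay on the length-listed genes and are called GRC reads below. Those GRC reads amounted to 869 reads per 1000000 reads of the library (RPM) in the ovary of *L. megarhynchos* against 254 in its testis, and 290 in the *L. luscinia* ovary against 520 in the *L. luscinia* testis, so the ovary was the higher tissue in *L. megarhynchos* and the lower in *L. luscinia*. The 5 most read genes held between 51.3% and 73.0% of the GRC reads of a library. The tissue labels could not be checked against cell type markers, because the table holds GRC copies only. Of 27 markers of oocytes, other germ cells, spermatids, Sertoli cells and granulosa cells, 1 was listed, DMRT1, a regulator of testis development. In *L. megarhynchos* it had 15 ovary reads against 0 testis reads, and in *L. luscinia* likewise 15 ovary reads against 0 testis reads. Its part in the results for SYCP1 and SYCE3 was not tested.

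SYCP1, the transverse filament gene, was read mainly in the ovaries. In *L. megarhynchos* it had an FPKM of 0.365 in the ovary against 0.0110 in the testis, and in *L. luscinia* an FPKM of 0.0681 in the ovary against 0 in the testis. The *L. megarhynchos* values rest on 54 ovary reads (40.6 to 70.5, exact Poisson interval) and 1 testis read (0.0253 to 5.57), and the *L. luscinia* values on 12 ovary reads (6.20 to 21.0) and 0 testis reads. In each species the ovary was thus the tissue with the higher value, and the testis was at or within a read of 0.

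In RPM the order of the SYCP1 levels was the same. The *L. megarhynchos* ovary came first with 0.937 RPM (0.704 to 1.22), followed by the *L. luscinia* ovary with 0.327 (0.169 to 0.572). The *L. megarhynchos* testis had 0.0282 RPM (0.000715 to 0.157). In the *L. luscinia* testis, the limit of 3 reads taken for a count of 0 lies at 0.0600 RPM, above the level measured in the *L. megarhynchos* testis. The exact Poisson interval of that count, of the kind given for the other libraries, reaches slightly higher, to 0.0738 RPM. The testes therefore did not differ beyond counting error, whereas the intervals of the 2 ovaries, and those of each ovary and either testis, did not overlap. RPM counts only reads on the assembled part of the gene, and SYCP1 was less complete in the assembly of the *L. luscinia* GRC. With a divisor that allows for completeness, the ratio of the *L. megarhynchos* to the *L. luscinia* ovary was 1.53 (0.807 to 3.14), as described below.

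SYCE3, the central element gene, was read in *L. megarhynchos* alone. Its FPKM was 12.1 in the ovary against 0.216 in the testis, from 182 reads (157 to 210) in the ovary and 2 reads (0.242 to 7.22) in the testis. These reads were 3.16 RPM (2.72 to 3.65) in the ovary and 0.0565 RPM (0.00684 to 0.204) in the testis, so the ovary and testis intervals did not overlap. In the ovary and testis of *L. luscinia* SYCE3 was listed at 0. The study gives no part of SYCE3 as found in its *L. luscinia* GRC assembly, and where nothing was assembled no read could be counted, so these zeros carry no depth and an unexpressed copy cannot be told apart from a missing one. They enter below only as listed values, in the pattern over the 4 libraries.

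**Figure D1:**
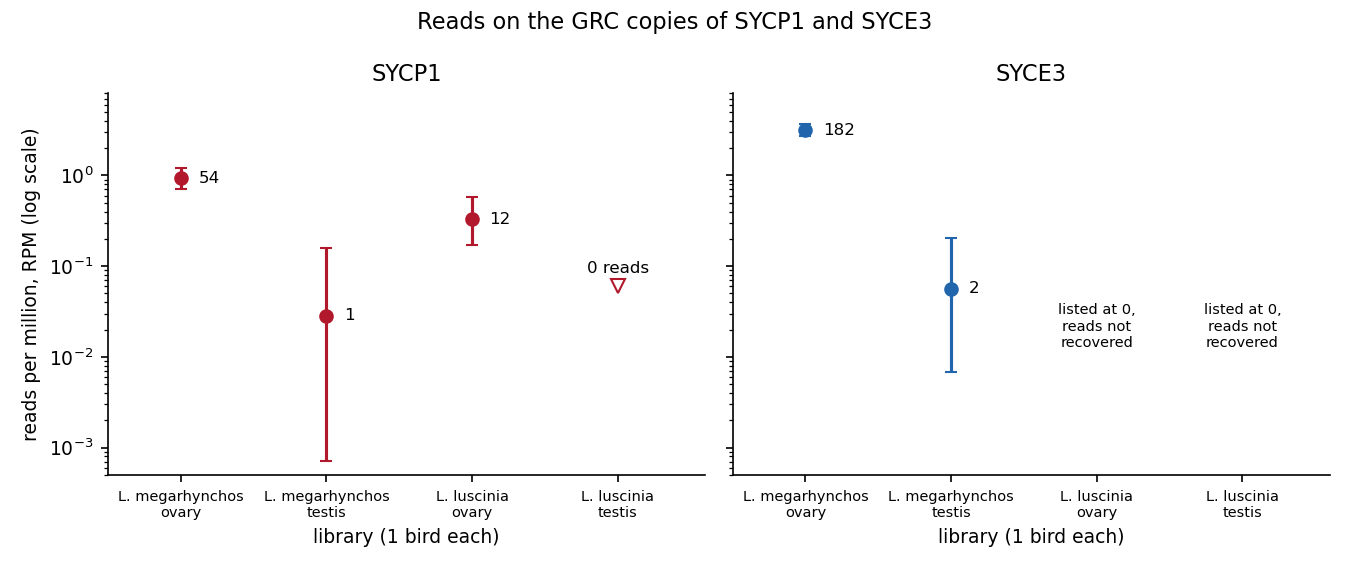
RPM, reads per 1000000 reads of the library (log axis), for SYCP1 (left panel) and SYCE3 (right panel) in each of the 4 libraries, with exact Poisson 95% intervals as bars and the number of reads beside each point. The open triangle is the 3-read limit of a library with 0 reads. The ovary points lie above the testis points for SYCP1 in both species (54 against 1 and 12 against 0 reads) and for SYCE3 in L. megarhynchos (182 against 2 reads).

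Whether GRC genes are expressed was asked in an ovary and a testis of each species, and for SYCP1 and SYCE3 the ovary was higher wherever the tissues could be compared. The share of cells that carried a GRC is not known for any library, and the study cautions against comparing FPKM between libraries for that reason. In *L. megarhynchos* the ovary exceeded the testis 33.2-fold for SYCP1 (5.71 to 1334, exact interval conditional on the sum of the reads) and 55.9-fold for SYCE3 (15.3 to 465). The upper bounds are wide because the testis values rest on 1 and 2 reads. At the ovary's RPM, the *L. megarhynchos* testis library would have held 33.2 reads of SYCP1 and 112 reads of SYCE3, where 1 and 2 were found. In *L. luscinia* the ovary exceeded the testis at least 5.46-fold for SYCP1 when 3 reads are taken as the limit in the testis and the 12 ovary reads as exact, and the exact conditional interval, which covers the error of the ovary reads too, begins at 3.79-fold. There the testis library would have held 16.4 reads at the ovary's level and held 0.

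Over the GRC rows as a whole, the direction was mixed in *L. megarhynchos*. Of the 267 rows above 0 in its ovary or testis, 127 (47.6%) were higher in the ovary, 84 of them with the testis at 0. Of the 114 rows above 0 in its ovary and testis, 13 (11.4%) were at least 10-fold higher in the ovary, and SYCP1 and SYCE3 were among them. The median ovary to testis ratio of the 114 rows was 0.61, and 43 of them were above 1. Ordered by that ratio, SYCE3 was number 7 and SYCP1 number 8. Among the rows with recovered reads and at least 10 reads in the pair of libraries, 12 of 57 were at least 10-fold higher in the ovary. A further 18 length-listed genes had at least 10 ovary reads and none in the testis, and stand outside these ratios. In *L. luscinia*, 45 of the 180 rows above 0 in either tissue (25%) were above 0 in the ovary and at 0 in the testis, as SYCP1 was. Of these, 9 were length-listed genes with at least 10 reads in the ovary, SYCP1 included.

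**Figure D2:**
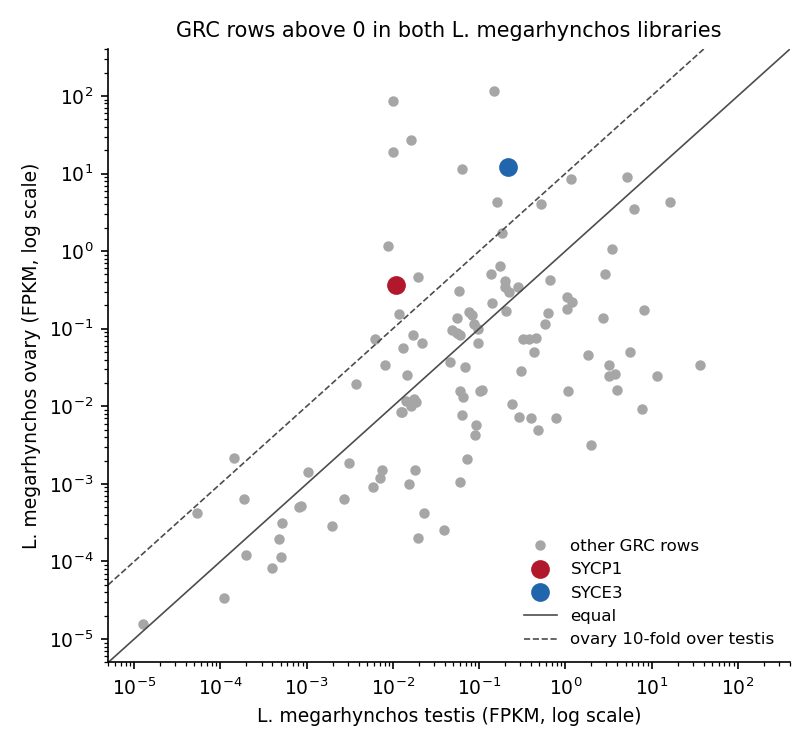
FPKM in the L. megarhynchos ovary (vertical axis) against the L. megarhynchos testis (horizontal axis), both on log axes, for the 114 rows above 0 in both libraries, 1 point per row. SYCE3 (blue) and SYCP1 (red) lie among the 13 rows above the dashed line of a 10-fold higher ovary value.

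The total of GRC reads also differed between the tissues, so the ratios were set against it, a choice made after the data had been seen. SYCP1 took 0.108% of the GRC reads in the *L. megarhynchos* ovary (exact binomial interval 0.0810% to 0.141%) against 0.0111% in the testis (0.000281% to 0.0618%). SYCE3 took 0.363% (0.313% to 0.420%) in the *L. megarhynchos* ovary against 0.0222% (0.00269% to 0.0802%) in the testis. On this scale the ovary exceeded the testis 9.71-fold for SYCP1 (1.67 to 391) and 16.4-fold for SYCE3 (4.47 to 136). In *L. luscinia* SYCP1 took 0.113% of the GRC reads in the ovary (0.0584% to 0.197%) and 0 of 25975 reads in the testis, and the ovary exceeded the testis at least 9.78-fold with the 3-read limit, while the exact interval begins at 6.79-fold. The higher ovary values therefore held relative to the other GRC genes too, at a smaller ratio in *L. megarhynchos* and at a larger bound in *L. luscinia*.

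SYCP1 is the member that could be compared between species, and the result depended on the scale. In the deposited FPKM, the *L. megarhynchos* ovary exceeded the *L. luscinia* ovary 5.36-fold (2.83 to 11.0). Of the 63 rows above 0 in both ovaries, 31 (49.2%) were at least 2-fold higher in *L. megarhynchos*, and their median ratio was 1.95, so that a value of this direction was common. SYCP1 was less complete in the assembly of the *L. luscinia* GRC than in that of *L. megarhynchos*. The deposited FPKM of a gene were reads over its full coding length, multiplied by an adjusted proportion of the gene found in the assembly. This form lowers the value of an incomplete gene, whereas the study describes its FPKM as based on the length present in the GRC, so the deposited levels and ranks of incomplete genes carry that doubt. In RPM the ratio of the *L. megarhynchos* to the *L. luscinia* ovary was 2.86 (1.51 to 5.88). With the length actually found, taken as the adjusted length (coding length times that proportion), SYCP1 had an FPKM of 0.365 (0.274 to 0.477) in the *L. megarhynchos* ovary against 0.239 (0.124 to 0.418) in the *L. luscinia* ovary. That ratio was 1.53 (0.807 to 3.14), and it was 1.52 (0.801 to 3.11) with the number of bases found as the divisor. As a share of the GRC reads the ratio was 0.955 (0.504 to 1.96). The ovaries thus differed beyond counting error in the deposited FPKM and in RPM, and not with the adjusted length, per base found or per GRC read. The intervals on those scales still reach 3.14-fold, 3.11-fold and 1.96-fold higher in *L. megarhynchos*.

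In deposited FPKM, SYCE3 exceeded SYCP1 in both *L. megarhynchos* libraries. In the ovary the FPKM was 12.1 for SYCE3 against 0.365 for SYCP1, a ratio of 33.1 (24.3 to 45.8). In the testis it was 0.216 for SYCE3 against 0.0110 for SYCP1, a ratio of 19.7 (1.02 to 1160) that rests on 3 reads in all. The SYCE3 coding sequence is much the shorter, and without any length the ovary held 3.37 times as many SYCE3 as SYCP1 reads (2.48 to 4.66). On that scale the testis ratio was 2 (0.104 to 118), so the genes did not differ there beyond counting error. SYCE3 was also the gene with far more copies on the *L. megarhynchos* GRC, as estimated by the study from DNA of 3 other males. Divided by the mean of those copy numbers, the ovary values were 0.226 FPKM per copy for SYCE3 and 0.235 FPKM per copy for SYCP1. The ratio per copy was 0.963 (0.707 to 1.33 from counting), and it lay between 0.743 and 1.60 with the copy numbers of each male in turn. Per copy, the genes thus did not differ beyond counting error in the ovary, with the reservation that copy number and expression come from different birds and that the copies that gave rise to the reads are not known. The step from 33.1 to 0.963 comes from the copy numbers alone. Reads that fit several separately assembled GRC copies equally well would not have been kept, and their effect on this ratio was not tested.

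**Figure D3:**
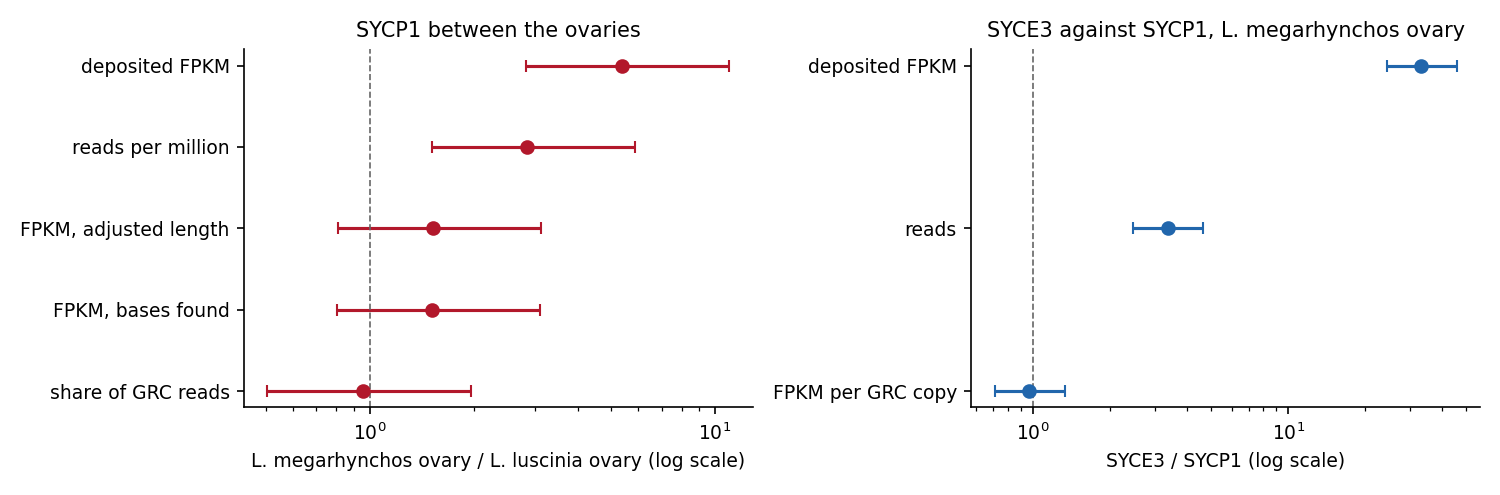
Left panel, ratio of SYCP1 in the L. megarhynchos ovary to the L. luscinia ovary on 5 scales. Right panel, ratio of SYCE3 to SYCP1 in the L. megarhynchos ovary on 3 scales. Horizontal axes are logarithmic, bars are exact 95% counting intervals and the dashed line marks equality. The SYCP1 ratio lies between 5.36 in deposited FPKM and 0.955 as a share of GRC reads, and the SYCE3 ratio between 33.1 in deposited FPKM and 0.963 per copy.

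Within the libraries, SYCE3 was among the highest GRC rows of the *L. megarhynchos* ovary in deposited FPKM. On that scale SYCP1 was in the upper part of all rows there. For the short SYCE3 this depends on the scale: 91.8% of the length-listed genes above 0 there were lower by FPKM, and 80.6% in reads. By FPKM, SYCE3 was number 8 and SYCP1 number 32 of the 198 rows above 0 there, 717 and 21.7 times the median of 0.0169. The deposited form lowers the values of incomplete genes, which enter that median. With the adjusted length, 89.8% of the length-listed genes above 0 there were below SYCE3 and 48.0% were below SYCP1. In the *L. megarhynchos* testis SYCE3 was number 48 and SYCP1 number 115 of 183 rows, where the median was 0.0237. In the *L. luscinia* ovary SYCP1 was number 51 of 140 rows, 3.26 times the median of 0.0209. Among the length-listed genes alone, SYCE3 was number 8 and SYCP1 number 29 of 98 in the ovary of *L. megarhynchos*, while in its testis they were number 40 and number 78 of 86. On the same footing SYCP1 was number 48 of 81 in the ovary of *L. luscinia*. Without the other rows, SYCP1 thus stood lower in the order in each of these libraries. Counted in reads, no length-listed gene with any read in the *L. megarhynchos* testis was below SYCP1, which had the minimum of 1 read.

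**Figure D4:**
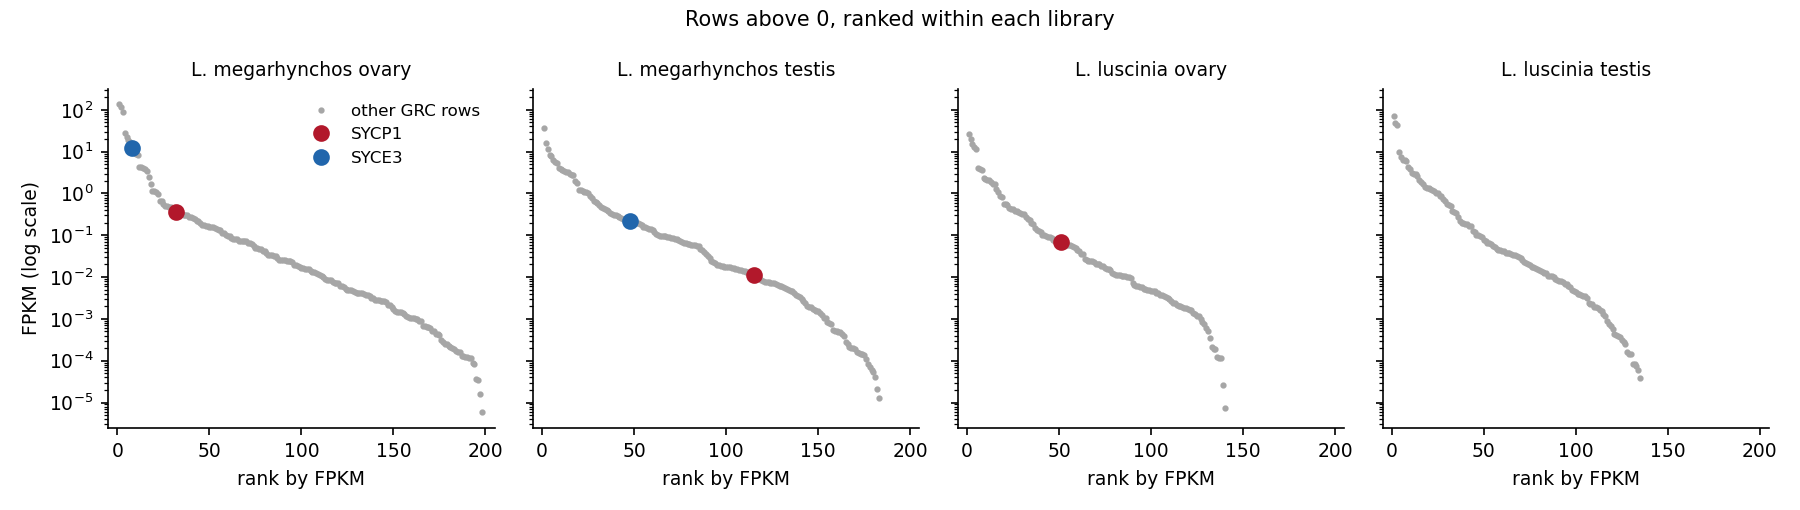
FPKM (log axis) of the rows above 0 in each library, ordered from highest to lowest, 1 panel per library and 1 point per row. SYCE3 (blue) is number 8 of 198 in the L. megarhynchos ovary and number 48 of 183 in the L. megarhynchos testis, SYCP1 (red) is number 32, number 115 and, in the L. luscinia ovary, number 51 of 140, and neither is above 0 in the L. luscinia testis.

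The other genes of the synaptonemal complex and of meiotic recombination were looked for by name. Of the 63 names listed, synonyms included, 7 were in the table and 5 were above 0 in any library, SYCP1 and SYCE3 among them. Without SYCP1 and SYCE3, 3 of the 5 other listed genes in the table were above 0. Of all 799 rows, 366 were above 0 in any library, so such a value was common among GRC rows. For the complex itself the table held 4 of 11 names. Besides SYCP1 and SYCE3 these were TEX12, which pairs with SYCE2 in the central element of the mouse, and C5H14orf39, taken as the flycatcher name of the central element gene C14orf39. TEX12 and C5H14orf39 were listed at 0 in all 4 libraries, so SYCP1 and SYCE3 were the components with a listed value above 0. The zeros of TEX12 in *L. megarhynchos* stand for 0 recovered reads, whereas those of TEX12 in *L. luscinia* carry no depth. For C5H14orf39 the depth behind the zeros is not known, since it is not among the length-listed genes.

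Of the 52 other names, 3 genes were in the table. RNF212B, a RING finger gene whose product marks future crossovers in mice, had an FPKM of 1.29 in the *L. luscinia* ovary against 0.121 in the *L. luscinia* testis, from 39 and 5 reads. Its ovary to testis ratio was 10.6 (4.19 to 34.6), and it was listed at 0 in both *L. megarhynchos* libraries, zeros that carry no depth, as for SYCE3 in *L. luscinia*. Its higher value was thus in the ovary, as for SYCP1. Of the 95 rows above 0 in both *L. luscinia* libraries, 39 were higher in the ovary. At least 10-fold higher were 8 of 51 length-listed genes with at least 10 reads in that pair. Like SYCE3, RNF212B was listed above 0 in 1 species, but for both genes this rests on zeros without depth. MSH4, which stabilises recombination intermediates, was listed above 0 in the *L. luscinia* testis alone, at an FPKM of 0.0371. MCM8, a helicase of recombination repair, had an FPKM of 0.000121 in the *L. megarhynchos* ovary against 0.000197 in the testis and was listed at 0 in *L. luscinia*. Given the sizes of the libraries, the values of MCM8 correspond to equal numbers of ovary and testis reads. Reads of MSH4 and MCM8 could not be recovered, since their coding length was not used here. The equal numbers of MCM8 may be as low as 1 and neither show nor exclude a higher level in the ovary. How many reads the MSH4 value stands for is not known. Its listed value was higher in the *L. luscinia* testis than in the *L. luscinia* ovary, opposite to SYCP1.

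**Figure D5:**
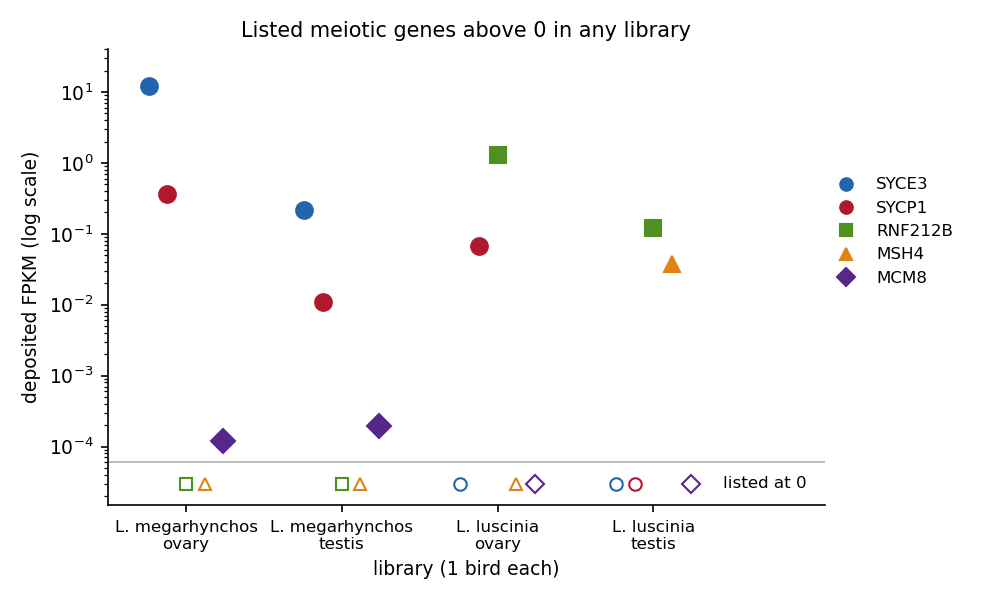
Deposited FPKM (log axis) of the 5 listed meiotic genes that were above 0 in any library, across the 4 libraries. Filled symbols are measured values and open symbols under the grey line are values listed at 0. SYCE3 and SYCP1 are highest in the L. megarhynchos ovary (12.1 and 0.365), RNF212B in the L. luscinia ovary (1.29) and MSH4 in the L. luscinia testis (0.0371).

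The genes whose pattern over the 4 libraries was most like that of each member were found from the shares of a gene's summed FPKM, among 106 other genes with at least 10 reads. Of its summed FPKM, SYCP1 had 82.2% in the ovary and 2.48% in the testis of *L. megarhynchos*, and 15.3% in the ovary of *L. luscinia*. Nearest to it was PIAS1, a ligase of the SUMO pathway, with 83.9% in the ovary and 0.464% in the testis of *L. megarhynchos*, and 15.2% in the ovary and 0.440% in the testis of *L. luscinia*. The sum of the absolute differences between the shares of SYCP1 and PIAS1 was 0.0421. The next were SLC26A9, an anion transporter (0.0675), LOC101816890 (0.107), ALG13, of protein glycosylation (0.116), and POLR2B, a subunit of RNA polymerase II (0.137). These genes shared the pattern at very different levels. Their FPKM in the *L. megarhynchos* ovary was 86.6 for SLC26A9, 27.2 for ALG13 and 4.32 for POLR2B, against 0.365 for SYCP1. The shares use the deposited FPKM, which the lower completeness of SYCP1 reduces in *L. luscinia*. With the adjusted length its *L. luscinia* ovary had an FPKM of 0.239 rather than 0.0681, so the share of that ovary would be larger. Of the 5 nearest genes of SYCP1, 4 stayed with shares of RPM and 1 with centred log2(FPKM + 0.01). Shares with the adjusted length were not tried.

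Of its summed FPKM, SYCE3 had 98.2% in the ovary and 1.76% in the testis of *L. megarhynchos*. LOC101808355 was nearest (0.0326), with an FPKM of 115 in the *L. megarhynchos* ovary against 0.150 in the testis. The next 13 genes were tied at 0.0352, and NECTIN3, FOXN2, IGF2 and SLC39A10 stand for them only by their order in the table. IGF2, an insulin-like growth factor, had an FPKM of 135 in the *L. megarhynchos* ovary against 0 in its testis, and 2.11 in the *L. luscinia* ovary. The tied rows of NECTIN3, FOXN2 and SLC39A10 were above 0 in the *L. megarhynchos* ovary alone, at an FPKM between 0.135 and 0.471, while a second FOXN2 row had an FPKM of 0.278 in the *L. luscinia* ovary and was listed at 0 elsewhere. All these likenesses to SYCE3 take its *L. luscinia* values as the listed zeros. Reads were kept only where they mapped uniquely. Reads that fit an A-chromosomal copy of SYCP1 or SYCE3 as well as the GRC copy are therefore missing from all these values. Any that fit several separately assembled GRC copies equally well would be missing too. A-chromosomal mRNA placed on the GRC would add to the values. The extent of each was not tested.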

How the data were processed

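The 4 libraries, from stranded mRNA, were read as 150 bp single-end reads. The authors used Trimmomatic 0.39 and STAR 2.7.9a, with the somatic genome and GRC assembly of the species as 1 reference, and kept reads unique to GRC exons. How strand was treated, and which program counted, is not given in the sources used here. FPKM were deposited by the authors with decimal commas, which were converted to points; 0 per-sample columns were left unused. For the length-listed genes, the deposited values were reads times the adjusted proportion of the gene, over its full coding length and the library's reads. In this form 100% of values were whole (tolerance 0.01 reads), and without the proportion at most 2.63% of those of incomplete genes. The recovery was run on values simulated in the form with the proportion, for 160 (*L. megarhynchos*) and 117 (*L. luscinia*) genes. In each library 100% of read numbers came back, which checks the calculation and not whether the deposited values have that form. Intervals are exact Poisson or Clopper-Pearson 95% intervals, and 3 reads are the limit of a count of 0.

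The members, the gene lists and the alternatives were chosen with earlier results of these data known. Named are the members, the listed meiotic genes held by the table, the 5 genes nearest to each member, and DMRT1 as the marker held by the table. Alternatives were other divisors, pseudocounts, filters, RPM and symbols summed. Python 3.11.15, numpy 2.4.6, pandas 2.3.3, scipy 1.17.1 and matplotlib were used.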

Additional observations from a re-analysis of the deposited data

How the results depend on the processing

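No paired analysis was possible because each species and tissue had 1 library, and for the same reason no library could be left out. Of 61 alternative values, 25 stayed within the range set for the reported value, 8 of them because the setting could not change it. A further 33 moved and 3 reversed, and the cause was not tested. The range was the counting interval for ratios, 1.5 times for counts and a binomial interval over the rows for percentages of rows. That binomial interval is not one of counting error. Pseudocounts of 0.1 and 1 FPKM brought the *L. megarhynchos* ovary to testis ratio of SYCP1 to 4.19 and 1.35, its *L. luscinia* ratio to 1.68 and 1.07 and its species ratio to 2.77 and 1.28, and 1 FPKM brought the SYCE3 ratio to 10.8, all by construction, since these are large against the values. The SYCP1 species ratio was 1.53 with the adjusted length, 1.52 with the bases found, 1.01 as a share of GRC reads without the 5 most read genes, and reversed to 0.955 with them. These shares were chosen after seeing the data, and without those 5 genes the ovary to testis ratio was 17.5 for SYCP1 and 29.5 for SYCE3 in *L. megarhynchos*, and at least 9.22 (3-read limit; exact lower limit 6.41) for SYCP1 in *L. luscinia*. The SYCE3 to SYCP1 ratio in the *L. megarhynchos* ovary was 3.37 in reads. Per GRC copy that ratio reversed to 0.963 (0.707 to 1.33) in the ovary and 0.571 (0.0297 to 33.7) in the testis. Both counting intervals include 1, so neither value shows SYCP1 to be the higher gene per copy. The percentage of rows below SYCP1 in the *L. megarhynchos* ovary was 83.8% in all rows, 70.4% in the length-listed genes, 44.8% in rows of at least 0.1 FPKM, 48.0% with the adjusted length and 67.3% in reads. In the testis it was 37.2%, 9.30% in the length-listed genes, and 0% with the adjusted length and in reads. In the *L. luscinia* ovary it was 63.6%, 40.7% in the length-listed genes, 38.3% with the adjusted length and 50.6% in reads. For SYCE3 in the *L. megarhynchos* ovary it was 96.0%, 91.8% in the length-listed genes, 86.2% and 61.9% in rows of at least 0.1 and 1 FPKM, 89.8% with the adjusted length and 80.6% in reads. In the testis it was 73.8%, 53.5%, 23.8% from 0.1 FPKM, 37.2% with the adjusted length and 12.8% in reads. SYCP1 in the *L. megarhynchos* testis and *L. luscinia* ovary, and SYCE3 in the testis at 1 FPKM, were under the filters and gave no value. With centred log2(FPKM + 0.01), 1 of the 5 nearest genes of SYCP1 remained, and 1 of those of SYCE3, where ties make the count arbitrary. With at least 10 reads, 3 of the 5 listed genes above 0 remained.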
